A study of Canis lupus familiaris with 10 samples.

Results

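Genes of cholesterol and fatty acid synthesis were examined in the neural retina of 5 dogs with advanced primary glaucoma and of 5 healthy dogs. The list held 34 genes, chosen by their known roles but with earlier results of these data known. A gene was followed through every array probe set whose annotation gave that gene as its single symbol. This gave 76 probe sets for 33 genes out of 42924 probe sets and 15115 annotated genes on the array, and 48 of these probe sets, for 27 genes, were bright enough to be tested. One eye per dog was used and each retina was hybridized to its own Affymetrix Canine Genome 2.0 array, which reads each transcript with sets of short probes. The glaucoma dogs were a Shiba Inu of 5 years, a Shiba Inu of 14 years, a Basset Hound of 5 years, a Basset Hound of 7 years and a Dalmatian of 9 years, all with closed iridocorneal angles and under topical drugs that lower the eye pressure. The study's own sample table gives other ages for the older Shiba Inu and the Dalmatian than the labels used here. The healthy dogs were 5 Beagles aged 4 years with no eye findings and no medication. Per the study, glaucoma eyes were removed by surgery from clinic patients, whereas the healthy dogs had been euthanized for unrelated reasons. Breed, age, medication and the way the eyes were obtained therefore cannot be told apart from the disease. The Beagles are numbered 1 to 5 as in the labels, and per-dog values below are log2 intensities, with the glaucoma dogs in the order just given.

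Cells build cholesterol from acetyl-CoA. The mevalonate arm of the pathway makes farnesyl diphosphate, a pair of farnesyl units is joined to squalene, squalene is oxidized and closed to lanosterol, and a chain of demethylations, reductions and a double bond shift ends in cholesterol. When sterol in the endoplasmic reticulum runs low, the transcription factors SREBF1 and SREBF2 are carried to the Golgi by SCAP and turn on most genes of the pathway, and the INSIG proteins hold them back when sterol is plentiful. Fatty acids also start from acetyl-CoA, which ACLY releases from citrate, and elongases and desaturases then lengthen and bend the chains. The retina makes part of its own cholesterol, with glia and photoreceptors as known sites, and its photoreceptor membranes are unusually rich in long polyunsaturated fatty acids.

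The deposited values were intensities normalized by the authors with RMA, which subtracts background, equalizes the arrays and summarizes the probes of a set. Median intensity per array was 78.0 to 80.7 in glaucomatous retinas and 77.1 to 80.6 in healthy retinas. In control transcripts, the 3' over 5' signal on the log2 scale, a sign of RNA integrity, spanned 0.78 to 1.14 in glaucomatous retinas and 0.94 to 1.52 in healthy retinas by one set of controls, and 1.15 to 1.69 in glaucomatous retinas and 1.18 to 1.58 in healthy retinas by another, so that the gap between the groups depended on the set. Markers of rods, the most numerous retinal neurons, were bright in both groups, with a summed level on the log2 scale of 12.42 to 15.87 in glaucomatous retinas and 15.52 to 16.01 in healthy retinas. Markers of several retinal cells differed between the groups. Passing the limma test described below, all 6 tested amacrine and horizontal cell markers, 4 of 5 bipolar cell markers, 6 of 9 ganglion cell markers and 3 of 8 cone markers were lower in glaucoma, and 10 of 10 microglial markers and 3 of 4 astrocyte markers were higher. Of the ganglion cell markers, SNCG was higher instead by its brightest probe set (2.52, adjusted p = 1.95e-04). The study itself lists SNCG among its lower genes by another probe set, so the direction of SNCG depends on the probe set. None of 8 rod markers passed, and 1 of 12 pigment epithelium markers was higher. Summed over the list and put on a log2 scale, pigment epithelium markers spanned 13.53 to 16.09 in glaucomatous retinas and 12.85 to 15.45 in healthy retinas. Compared with the mean of the healthy retinas, their median was 2.90 higher in the 5-year-old Shiba Inu and 1.91 higher in Beagle 4, so that one retina of each group stood apart in markers of this neighboring tissue. In whole retina, fewer cells of a type and less RNA per cell cannot be told apart, and the part of these shifts in the results below was not tested. Values without both of these dogs are given for some genes, but they do not test it. Among the other dogs the same pigment epithelium median was still -0.20 to 0.86 in glaucomatous retinas and -0.53 to -0.24 in healthy retinas.

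Of the 27 tested genes, 3 were lower in glaucoma and 0 were higher. The test was limma, a linear model with moderated variances, with Benjamini-Hochberg adjustment over 18416 probe sets and a threshold of 0.05. The genes were SQLE, FDPS and NSDHL, all enzymes of sterol synthesis. Their share of 11.1% stands beside 8.65% for lower calls among all 7900 tested genes, and higher calls made up 8.04% of all genes, or 16.7% for both directions. None of the 3 reached a 2-fold difference, whereas 2.71% of all genes passed the test with a 2-fold lower level. Small differences in one direction were frequent: 22 of 27 genes (81.5%) had a lower mean in glaucoma, beside 50.9% of all genes. At an unadjusted p under 0.05, 12 of 27 genes were lower (44.4%, beside 17% of all genes) and 2 were higher (7.41%, beside 15.2%). The median difference of the 27 genes, glaucoma minus healthy, was -0.28 on the log2 scale, and that of all tested genes was -0.007. Within the list the 14 enzymes of sterol synthesis had a median of -0.29 and the 8 genes of fatty acid synthesis, elongation and desaturation a median of 0.13. NSDHL, like INSIG1 among the genes with a low unadjusted p, met the expression minimum through healthy dogs alone, a way into the test that favors genes with a lower level in glaucoma. The counts, medians and shares are therefore descriptions, and no test of the list as a whole was made.

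**Figure D1:**
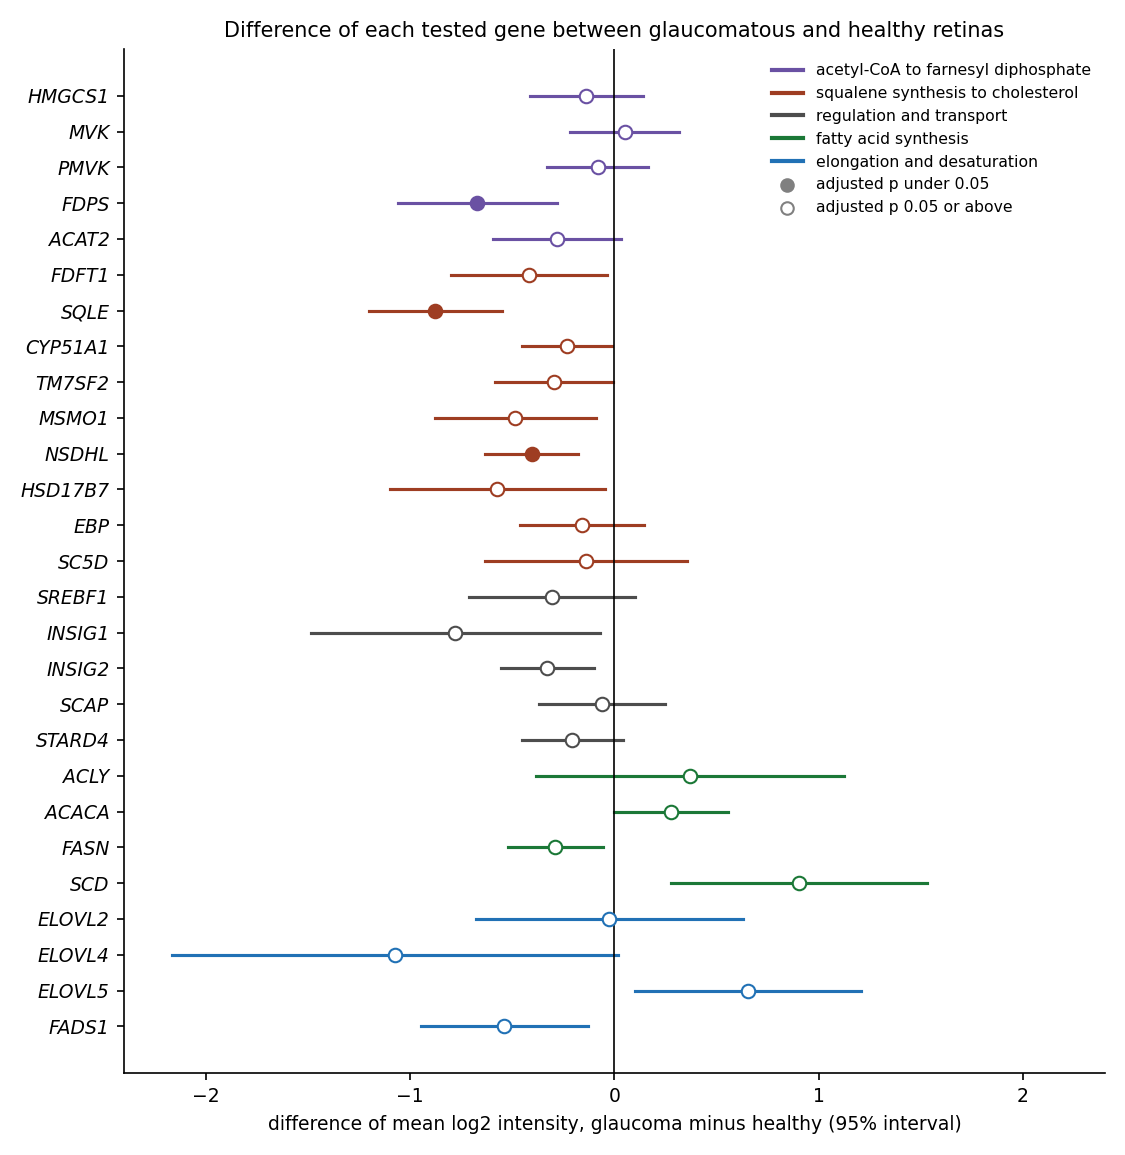
Difference of mean log2 intensity, glaucoma minus healthy, for each of the 27 tested genes, with points for the limma estimate, bars for its 95% interval and colors for the role of the gene. The filled points, SQLE, FDPS and NSDHL, passed the adjusted threshold, all 9 tested genes from squalene synthesis to cholesterol lie left of 0, and SCD and ELOVL5 lie farthest to the right.

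Squalene epoxidase, encoded by SQLE, adds the oxygen to squalene that later becomes the hydroxyl group of cholesterol, and is one of the rate-controlling steps. It had the smallest adjusted p of the list. The log2 values of its brightest probe set were 8.20, 8.00, 8.48, 8.17 and 7.89 in glaucomatous retinas, against 8.63, 8.96, 9.07, 9.20 and 9.26 in healthy retinas. Every glaucomatous retina lay below every healthy one, and the nearest pair was the 5-year-old Basset Hound and Beagle 1. SQLE averaged 8.15 ± 0.22 in glaucoma and 9.02 ± 0.25 in healthy retinas (SD, n = 5 each), a difference of -0.88 (SE 0.15, 1.84-fold lower, adjusted p = 0.0027 by limma). Among all genes, 7.84% had every glaucoma dog below every healthy dog. The other tested probe sets of SQLE differed by -0.95 (adjusted p = 0.0048) and by -0.90 (adjusted p = 0.0105), also without overlap between the groups. SQLE passed the threshold in every alternative limma fit, with differences between -0.71 with age as a covariate and -0.99 without both Basset Hounds.

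FDPS, which makes the farnesyl diphosphate that feeds squalene, ubiquinone, dolichol and prenylated proteins, was lower as well. Its log2 values were 8.86, 8.82, 9.49, 9.05 and 8.87 in glaucomatous retinas, against 9.15, 9.73, 9.76, 9.89 and 9.92 in healthy retinas. All but the 5-year-old Basset Hound lay below the lowest healthy retina, Beagle 1, which itself stood well below the other Beagles. The means were 9.02 ± 0.28 in glaucoma and 9.69 ± 0.31 in healthy retinas (SD, n = 5 each), a difference of -0.67 (SE 0.18, 1.59-fold lower, adjusted p = 0.0251 by limma). This call was not stable. The adjusted p of FDPS was 0.0629 without the Dalmatian, 0.0615, 0.0541, 0.0621 and 0.0659 without Beagle 2, 3, 4 or 5, 0.0988 without both Shiba Inus, 0.0865 without the 5-year-old Shiba Inu and Beagle 4, 0.178 with age as a covariate and 0.0836 with the 3' to 5' ratio as a covariate (0.0257 with that of the other control set), while the difference stayed between -0.84 and -0.51 in these and in all other fits.

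The rest of the mevalonate arm differed little. ACAT2, the cytosolic thiolase that joins acetyl-CoA units at its start, differed by -0.28 (adjusted p = 0.198), and its second tested probe set by -0.33. HMGCS1, the next enzyme and the brightest of the sterol enzymes with 11.30 ± 0.13 in glaucoma and 11.43 ± 0.23 in healthy retinas (SD, n = 5 each), differed by -0.14 (adjusted p = 0.481). MVK, the mevalonate kinase, lay close to the expression minimum and differed by 0.05. For PMVK, the phosphomevalonate kinase, the probe sets differed in sign: the brightest gave -0.08 and the others 0.08 and 0.01, all with adjusted p values of 0.654 or above. Of PMVK values, 9.28, 8.82, 9.03, 8.95 and 8.99 came from glaucomatous retinas and 9.08, 8.97, 9.17, 9.30 and 8.97 from healthy retinas, and the groups overlapped widely. MVD was below the minimum and IDI1 was not analysed here, nor was the reductase that sets the rate of the mevalonate arm.

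From the making of squalene onward, all 9 tested enzymes had a lower mean in glaucoma, by -0.88 to -0.14, and 2 of them, SQLE and NSDHL, passed the test. NSDHL, a dehydrogenase that helps to remove the methyl groups at carbon 4 of the sterol, had log2 values of 6.93, 6.90, 6.93, 6.76 and 6.71 in glaucomatous retinas, against 7.30, 7.10, 7.09, 7.33 and 7.44 in healthy retinas. The groups did not overlap, but the gene was dim. NSDHL entered the test through the healthy dogs alone, with 0 glaucomatous and 5 healthy retinas above the minimum, and its difference was -0.41 (SE 0.10, 1.32-fold lower, adjusted p = 0.0214 by limma). Its adjusted p was 0.0552 without the Dalmatian, 0.0528 without Beagle 4, 0.0575 without Beagle 5, 0.0524 without both Basset Hounds, 0.0967 with age as a covariate and 0.134 with the 3' to 5' ratio (0.0229 with that of the other control set). A second, still dimmer probe set of NSDHL was not tested.

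MSMO1, the oxygenase that acts before NSDHL on the same methyl groups, and HSD17B7, the ketoreductase that acts after it, had lower means that did not pass. MSMO1 values were 9.86, 10.16, 10.42, 9.97 and 9.63 in glaucomatous retinas and 10.04, 10.62, 10.34, 10.71 and 10.76 in healthy retinas. Beagles 1 and 3 fell within the range of the glaucoma dogs. The difference was -0.49 (SE 0.18, adjusted p = 0.0874), and the dimmer MSMO1 probe set gave -0.55 (adjusted p = 0.168). HSD17B7 values were 7.07, 6.61, 7.14, 6.48 and 6.31 in glaucomatous retinas and 6.61, 7.79, 7.08, 7.36 and 7.63 in healthy retinas, with Beagles 1 and 3 again within the range of the glaucoma dogs. The HSD17B7 difference was -0.57 (SE 0.24, adjusted p = 0.122). Without Beagle 1, the adjusted p was 0.0418 for MSMO1 at a difference of -0.60 and 0.0429 for HSD17B7 at -0.74. With Beagle 1 kept and the 5-year-old Basset Hound left out, that of MSMO1 was 0.0386 at -0.59. The dogs left out ran against these differences. MSMO1 did not pass in 22 alternatives and HSD17B7 did not in 23.

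FDFT1, which joins farnesyl units to squalene, differed by -0.42 (adjusted p = 0.119) and by -0.46 in its second probe set. CYP51A1, the lanosterol demethylase, differed by -0.23 (adjusted p = 0.137), and TM7SF2, a sterol reductase, by -0.30 (adjusted p = 0.147). EBP, which shifts a ring double bond, and SC5D, which adds one, were nearest to 0 at -0.16 and -0.14. The groups overlapped, and no EBP or SC5D value of a glaucomatous retina lay below the lowest healthy one, again Beagle 1. LSS and DHCR7, the cyclase and the final reductase, were too dim to be tested.

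**Figure D2:**
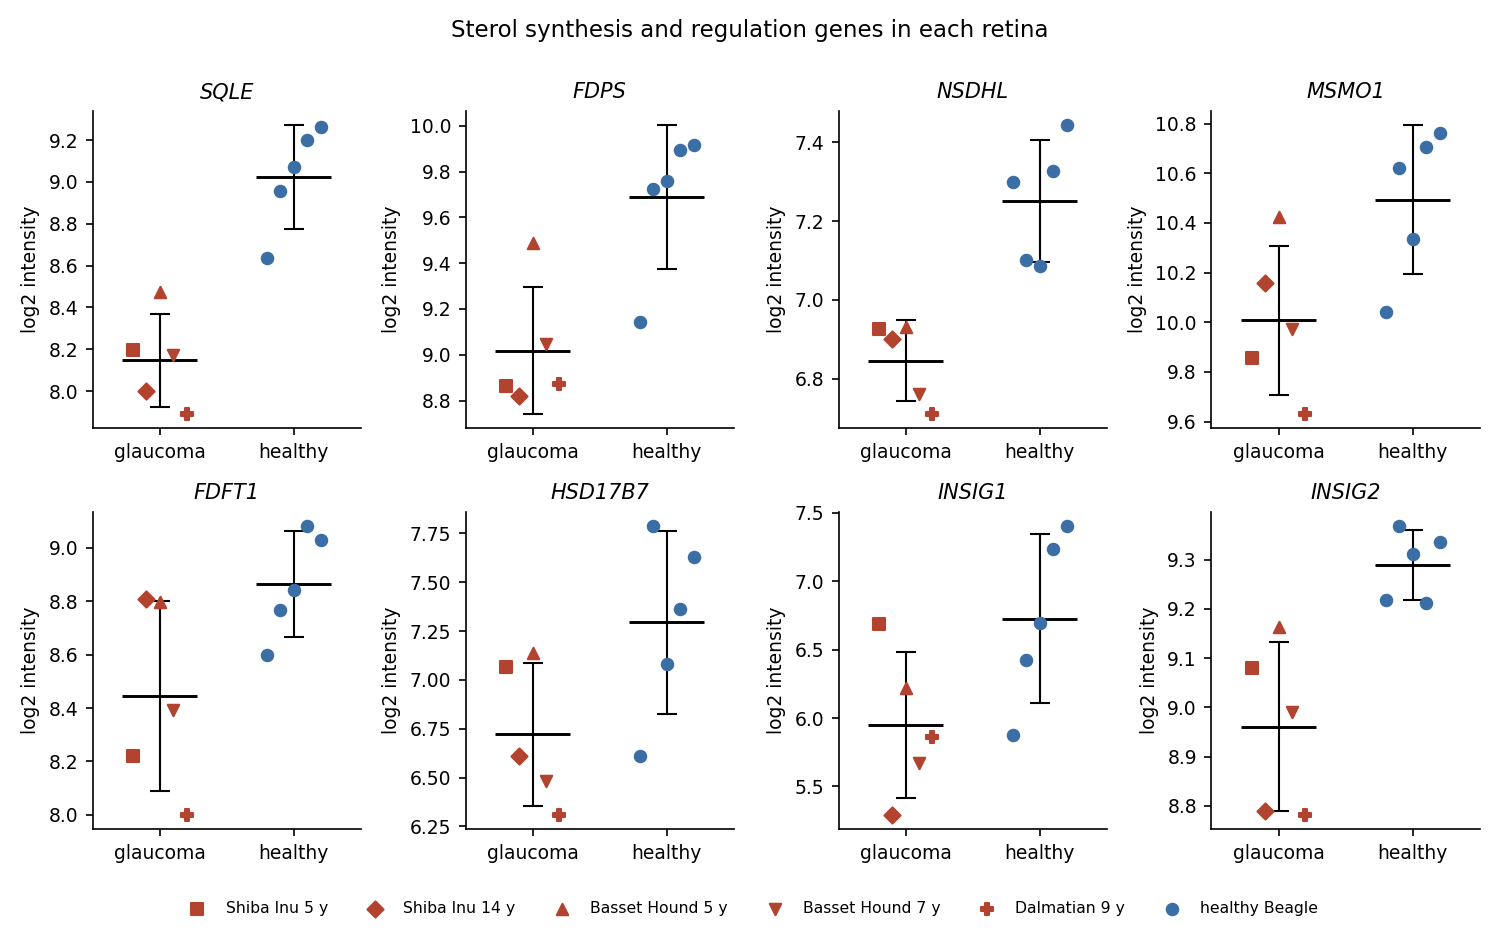
Log2 intensity of 8 genes of sterol synthesis and its regulation in each of the 5 glaucomatous and 5 healthy retinas, with each glaucoma dog under its own symbol, the mean as a horizontal line and the SD as error bars; the vertical axes start at different levels. The groups of SQLE, NSDHL and INSIG2 do not overlap, and in FDPS, MSMO1, FDFT1 and HSD17B7 the lowest healthy point is Beagle 1.

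The regulators of the pathway had lower means without a call. INSIG2 values were 9.08, 8.79, 9.16, 8.99 and 8.78 in glaucomatous retinas, against 9.22, 9.37, 9.31, 9.21 and 9.34 in healthy retinas. Here too every glaucomatous retina lay below every healthy one, by a narrow margin. INSIG2 differed by -0.33 (SE 0.10, adjusted p = 0.0511), just outside the threshold, and its adjusted p was 0.0432 when the 5-year-old Shiba Inu was left out, 0.0296 when the 5-year-old Basset Hound was and 0.0395 when both Basset Hounds were. In 19 alternatives INSIG2 did not pass. INSIG1, itself a target of SREBP factors and often read as a gauge of their activity, had the largest negative mean difference among the regulators. INSIG1 values were 6.69, 5.29, 6.22, 5.67 and 5.86 in glaucomatous retinas and 5.88, 6.42, 6.69, 7.24 and 7.40 in healthy retinas. Only Beagles 4 and 5 lay above the expression minimum, through which the gene entered the test, and the 5-year-old Shiba Inu matched the middle of the healthy range. The INSIG1 difference was -0.78 (SE 0.32, adjusted p = 0.119), and it was -0.96 with an adjusted p of 0.0496 when that dog, which ran against the difference, was left out. INSIG1 did not pass in 19 alternatives and passed in 2, this one included. In the rest of the 25 it did not meet the expression minimum and was not tested. SREBF1 (-0.30), the sterol carrier STARD4 (-0.21) and SCAP (-0.06) had adjusted p values of 0.282, 0.233 and 0.807, and SREBF2 was too dim to be tested.

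Across dogs, most sterol enzymes lay below the healthy mean in each glaucomatous retina. Of the 14 tested enzymes, 13, 13, 13, 12 and 12 did so in the glaucoma dogs, and 11, 7, 6, 1 and 3 in Beagles 1 to 5. In the glaucoma dogs 7, 7, 4, 9 and 6 lay below the lowest healthy retina. No share of all tested genes in the same dog stands beside these counts, so they are descriptions only. The median difference of the 14 enzymes from the healthy mean was -0.29, -0.34, -0.12, -0.31 and -0.32 in the glaucoma dogs. It was -0.36 in Beagle 1, against -0.008, 0.05, 0.14 and 0.16 in Beagles 2 to 5. By this median Beagle 1 was lower than every glaucoma dog, but not in each enzyme. For HMGCS1 (-0.35), EBP (-0.48) and SC5D (-0.69) Beagle 1 lay further below the healthy mean than any glaucoma dog. SQLE and NSDHL, both called lower, went the other way. For SQLE it differed from the healthy mean by -0.39, against -1.13 to -0.55 in the glaucoma dogs. For NSDHL it differed by 0.05, against -0.54 to -0.32. Beagle 1 was the lowest healthy retina for 9 of the 14 enzymes, and for 15 of all 27 genes. The same retina had a 3' over 5' signal of 1.52 on the log2 scale, the highest among the 10 in one control set, whereas in the other its value of 1.57 was below those of the 5-year-old Shiba Inu (1.69), the Dalmatian (1.59) and Beagle 4 (1.58). The part of this in its low values was not tested. With Beagle 1 left out, 5 of the 27 genes were called lower, and 6 were with the 5-year-old Shiba Inu left out. It was 5 without the 5-year-old Basset Hound, and SQLE was the 1 gene called lower without Beagle 4 or without Beagle 5.

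**Figure D3:**
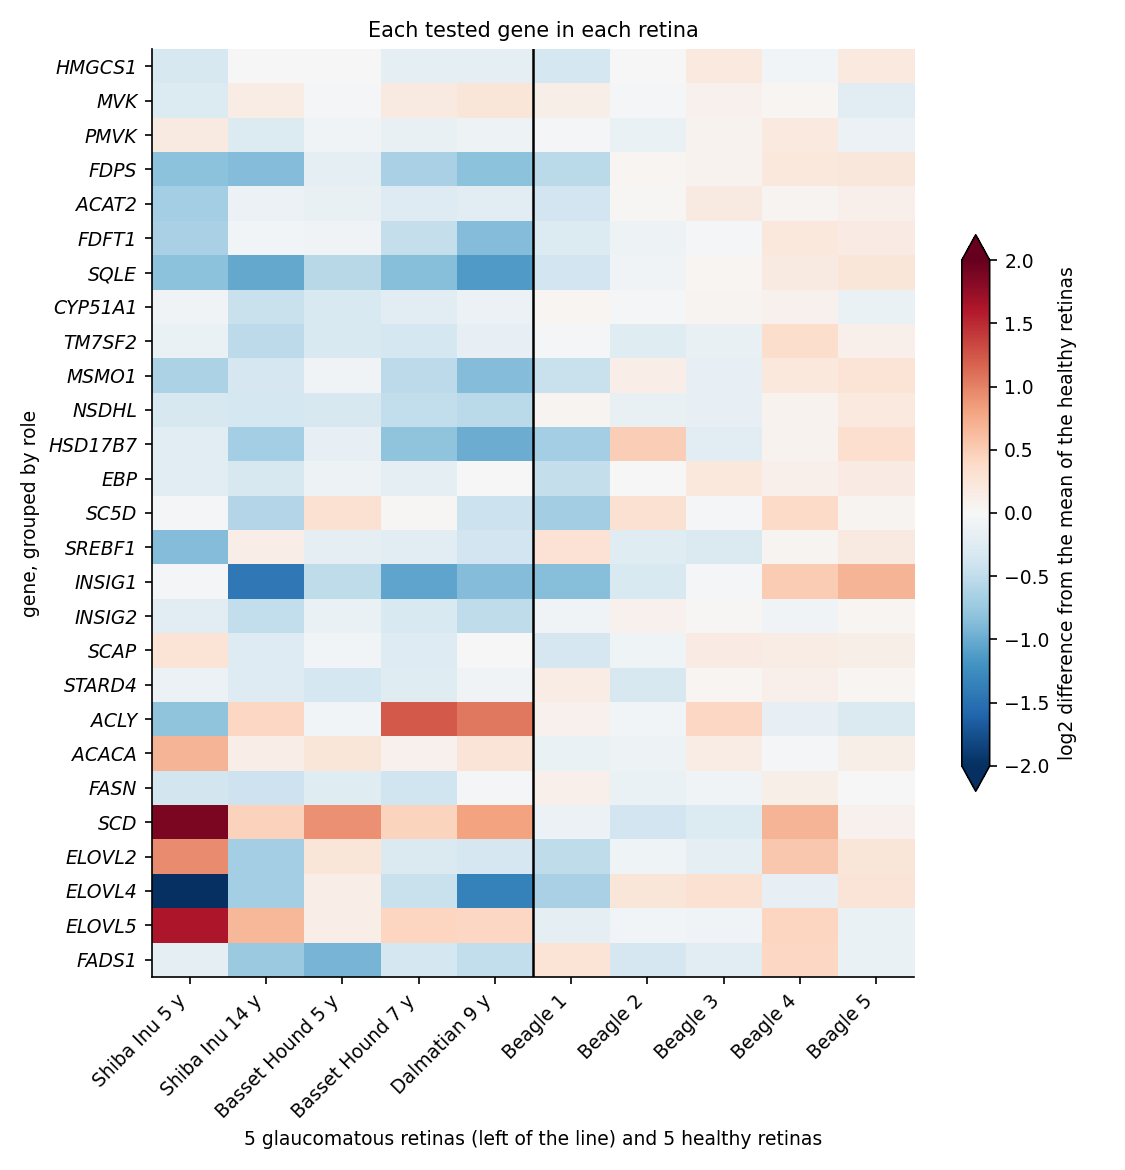
Log2 difference from the mean of the healthy retinas for each of the 27 tested genes (rows, grouped by role) in each retina (columns, with the glaucoma dogs left of the line); blue is lower and red higher, and the color scale ends at 2 in either direction. The sterol enzymes are mostly blue in the 5 glaucomatous retinas and in Beagle 1, and SCD is red in all 5 glaucomatous retinas and in Beagle 4.

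The genes of fatty acid synthesis did not share one direction. SCD, the stearoyl-CoA desaturase that makes oleate, had the largest positive mean difference of the 27 genes. Its log2 values were 12.08, 10.67, 11.11, 10.65 and 11.01 in glaucomatous retinas, against 10.09, 9.82, 9.92, 10.88 and 10.29 in healthy retinas. Only Beagle 4, the healthy dog with high pigment epithelium markers, overlapped with the glaucoma dogs, and the highest value came from the 5-year-old Shiba Inu, the glaucoma dog with high pigment epithelium markers. SCD averaged 11.11 ± 0.58 in glaucoma and 10.20 ± 0.42 in healthy retinas (SD, n = 5 each). The difference of 0.90 (SE 0.28, 1.87-fold) had an adjusted p of 0.0512, just outside the threshold. Without these dogs it was 0.83 (adjusted p = 0.0073), and without Beagle 4 alone 1.07 (adjusted p = 0.0305). Leaving out the 14-year-old Shiba Inu or the 7-year-old Basset Hound also brought SCD past the threshold, with adjusted p values of 0.0427 and 0.0461. A second SCD probe set, dim at 7.25 ± 0.26 in glaucoma and 7.08 ± 0.04 in healthy retinas (SD, n = 5 each), differed by 0.17 (adjusted p = 0.361).

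ACLY, which supplies cytosolic acetyl-CoA to both pathways, was the brightest gene of the list and split the glaucoma dogs. Its values were 11.35, 12.57, 12.09, 13.38 and 13.21 in glaucomatous retinas and 12.24, 12.10, 12.56, 11.98 and 11.86 in healthy retinas. The 7-year-old Basset Hound and the Dalmatian lay above all healthy retinas by a wide margin, and the 5-year-old Shiba Inu lay below all of them. In both dimmer ACLY probe sets the same pair of dogs was highest and the 5-year-old Shiba Inu lowest of the glaucoma dogs. In the first of these the values were 7.89, 8.71, 8.76, 10.52 and 10.75 in glaucoma, against 8.43 to 9.33 in healthy retinas, and in the other 5.68, 6.38, 5.77, 7.99 and 7.62 in glaucoma, against 5.75 to 6.57 in healthy retinas. The group difference of ACLY was 0.37 (SE 0.34, adjusted p = 0.485), and the SD of 0.83 among glaucoma dogs stood beside 0.27 among healthy dogs.

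The enzymes that use this acetyl-CoA differed less. ACACA, the carboxylase that makes malonyl-CoA, differed by 0.28 (adjusted p = 0.158), with 3 of 5 glaucomatous retinas above the highest healthy one. FASN, the synthase that builds palmitate, differed by -0.29 (adjusted p = 0.0847), with 4 of 5 glaucomatous retinas below the lowest healthy one. The Dalmatian was the exception, and without it FASN passed at -0.35 (adjusted p = 0.0468). That dog ran against the difference, so leaving it out favors a smaller adjusted p. In the other 24 alternatives FASN did not pass. The second FASN probe set gave -0.05.

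Among the elongases, ELOVL5 and ELOVL4 had mean differences of opposite sign, and neither passed the test. ELOVL5, which extends polyunsaturated chains on the way to arachidonic and docosahexaenoic acid, had values of 8.81, 7.86, 7.32, 7.61 and 7.60 in glaucomatous retinas and 7.01, 7.13, 7.11, 7.62 and 7.05 in healthy retinas. The highest value of each group again came from the 5-year-old Shiba Inu and from Beagle 4. The difference was 0.65 (SE 0.25, 1.57-fold, adjusted p = 0.0978), and without both of these dogs it was 0.52 (adjusted p = 0.0246). Without both Basset Hounds it was 0.90 (adjusted p = 0.0431). In 22 alternatives ELOVL5 did not pass.

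ELOVL4 builds the very long polyunsaturated chains of photoreceptor membranes, and its mutations cause a dominant macular dystrophy in humans. ELOVL4 values were 7.64, 9.99, 10.81, 10.23 and 9.32 in glaucomatous retinas and 10.03, 10.92, 10.98, 10.51 and 10.93 in healthy retinas. The 5-year-old Shiba Inu was far below all others and the Dalmatian next, while both Basset Hounds lay within the healthy range. ELOVL4 averaged 9.60 ± 1.22 in glaucoma and 10.67 ± 0.41 in healthy retinas (SD, n = 5 each). The difference of -1.08 (SE 0.50, 2.11-fold lower) was the largest of the list in size and did not pass (adjusted p = 0.16). With that Shiba Inu left out it was -0.59 (adjusted p = 0.19), and without both Basset Hounds, which ran against the difference, -1.69 (adjusted p = 0.0356). In the other 24 alternatives ELOVL4 did not pass. Photoreceptor markers were low in the same dogs: relative to the healthy mean, the median of the rod markers was -3.47 in the 5-year-old Shiba Inu, -0.69 in the Dalmatian and -0.05 to 0.03 in the other glaucoma dogs, and that of the cone markers was -2.53, -0.73, -0.27, -1.18 and -2.38 in the glaucoma dogs. The log2 of the summed cone markers was 11.85 to 14.56 in glaucomatous retinas and 14.68 to 14.98 in healthy retinas. Their part in the ELOVL4 difference was not tested.

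ELOVL2, which makes precursors of docosahexaenoic acid, varied among dogs more than between groups. Its values were 9.32, 7.69, 8.63, 8.08 and 8.04 in glaucomatous retinas and 7.88, 8.29, 8.19, 8.92 and 8.62 in healthy retinas. The 5-year-old Shiba Inu and Beagle 4 were the highest of their groups once more. The brightest ELOVL2 probe set differed by -0.02 (SE 0.30, adjusted p = 0.965) and the other by 0.03, so the sign was undetermined. In all, 7 of the 27 genes had both of these dogs at the top of their groups: SCD, ELOVL2, ELOVL5, FADS1, CYP51A1, TM7SF2 and PMVK.

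FADS1, the delta-5 desaturase of arachidonic and eicosapentaenoic acid synthesis, had values of 9.29, 8.72, 8.53, 9.12 and 8.98 in glaucomatous retinas and 9.74, 9.14, 9.26, 9.88 and 9.33 in healthy retinas. Only the 5-year-old Shiba Inu lay above the lowest healthy retina. The FADS1 difference was -0.54 (SE 0.19, 1.45-fold lower, adjusted p = 0.0699), and the other probe sets gave -0.48 and -0.55. FADS1 passed at -0.63 when that dog, which ran against the difference, was left out (adjusted p = 0.0368). In 22 alternatives FADS1 did not pass. The desaturase partner FADS2 and the elongase ELOVL6 were too dim to be tested.

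**Figure D4:**
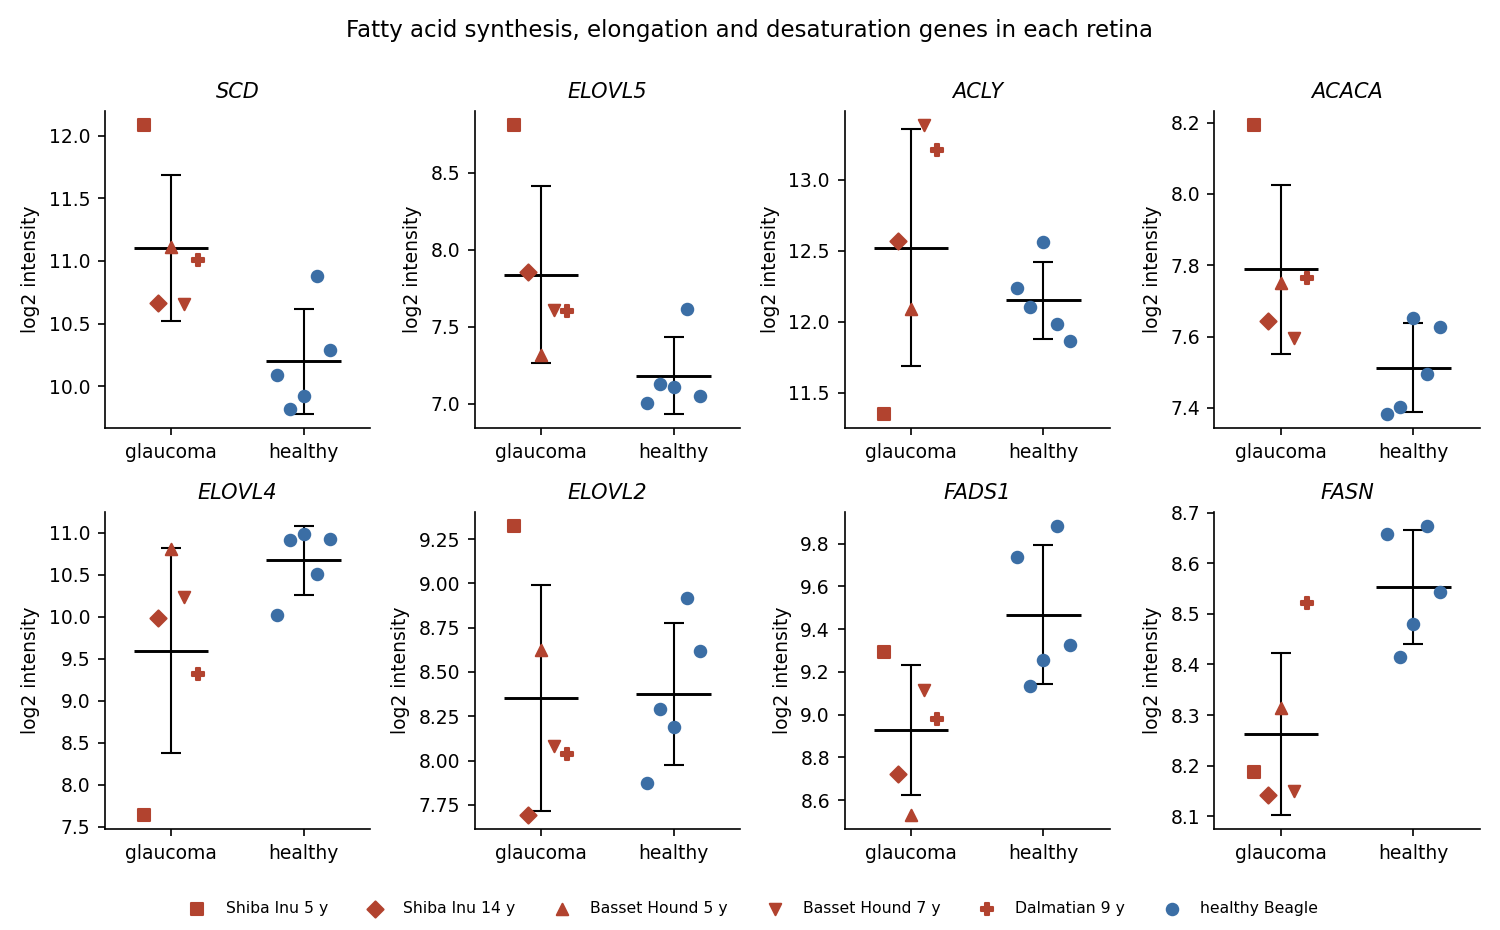
Log2 intensity of 8 genes of fatty acid synthesis, elongation and desaturation in each of the 5 glaucomatous and 5 healthy retinas, with each glaucoma dog under its own symbol, the mean as a horizontal line and the SD as error bars; the vertical axes start at different levels. The 5-year-old Shiba Inu is highest in SCD, ELOVL5, ACACA and ELOVL2 and lowest in ACLY and ELOVL4, and the 7-year-old Basset Hound and the Dalmatian are highest in ACLY.

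Probe sets of the same gene mostly gave the same direction. Of 16 genes with more than 1 tested probe set, 14 had all of them on the same side of 0, and PMVK and ELOVL2 did not. Counting probe sets instead of genes, 5 of 48 were lower (10.4%, beside 9.4% of all tested probe sets) and 0 were higher (beside 7.58%). The 5 were the 3 of SQLE and those of FDPS and NSDHL. The spread among glaucoma dogs ranged from an SD of 0.10 for NSDHL to 1.22 for ELOVL4, and among healthy dogs from 0.07 for INSIG2 to 0.62 for INSIG1. Of the 33 genes, 6 had no tested probe set: SREBF2, DHCR7, ELOVL6, LSS, FADS2 and MVD. Their 8 probe sets lay between 4.67 and 7.08 in all dogs and differed by -0.36 to 0.60. With no filter, 1 of the 8 passed, that of ELOVL6 at -0.36 (adjusted p = 0.0129), with every retina below the expression minimum.

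Neighboring pathways were described for comparison by the same test, with counts to be read beside 8.04% higher and 8.65% lower calls among all tested genes. In 5 tested genes that also serve cholesterol synthesis or its control, 1 was lower and 0 were higher. It was STARD6, a member of the STAR lipid transfer family, with 7.68 ± 0.43 in glaucoma and 8.78 ± 0.31 in healthy retinas (SD, n = 5 each) and a difference of -1.09 (adjusted p = 0.0065). Of 7 genes of the isoprenoid branch, which uses farnesyl diphosphate, only RABGGTA passed, a subunit of the enzyme that prenylates RAB proteins, at -0.40 (adjusted p = 0.0246). Of 10 genes for the export, storage and oxidation of sterol, 2 were higher (beside 8.04% of all genes) and 0 lower. NPC2, which hands cholesterol out of the lysosome, differed by 0.99 (adjusted p = 0.0297), and CYP27A1, the sterol 27-hydroxylase, by 0.84 (adjusted p = 0.0235). A probe set of MYLIP that did not stand for its gene also passed as higher (0.50, adjusted p = 0.0126). The other MYLIP probe sets, at 0.31 and 0.34, did not pass.

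Of 19 further genes listed with fatty acid synthesis, not all of them its enzymes, 2 were higher and 1 was lower, beside the same 8.04% and 8.65% of all genes. ACSS1, a mitochondrial acetyl-CoA synthetase, had values of 10.09, 9.31, 9.75, 10.01 and 10.78 in glaucomatous retinas, against 8.05, 8.04, 7.89, 8.24 and 8.04 in healthy retinas. The groups were far apart, and the ACSS1 difference of 1.94 (SE 0.22, adjusted p = 2.68e-04) was larger than that of any of the 27 genes. ELOVL1, an elongase of saturated very long chains, was higher by 0.84 (adjusted p = 0.0411), and TECR, the reductase that closes each elongation cycle, was lower, with a difference of -0.42 (adjusted p = 0.0243). ACSS2 differed by 0.35 and did not pass (adjusted p = 0.133). The probe sets of SCD5 differed by -0.70, -0.74 and -0.32. Only the second, which did not stand for the gene, passed (adjusted p = 0.0176). A dim probe set of ACSL5 that did not stand for its gene passed as higher (1.35, adjusted p = 0.0276). The other ACSL5 probe sets, at 0.12 and 0.24, did not pass. Of 19 genes of fatty acid breakdown, 4 were higher (beside 8.04% of all genes) and 0 lower. These were ACOX2, a peroxisomal oxidase (1.66, adjusted p = 0.003), and the mitochondrial enzymes ECI2 (0.69, adjusted p = 0.03), HADHB (0.49, adjusted p = 0.0235) and ACAA2 (0.48, adjusted p = 0.0458). The second tested probe sets of ECI2 (0.43, adjusted p = 0.182) and ACAA2 (0.23, adjusted p = 0.3565) did not pass, and that of ACOX2 did (1.09, adjusted p = 0.0066). The 5-year-old Shiba Inu had the highest value of NPC2, CYP27A1, ELOVL1, ACOX2, ECI2, HADHB and ACAA2 in the series, and microglial markers were higher in all 5 glaucoma dogs, by medians of 1.60 to 2.73. The log2 of their sum was 13.00 to 14.26 in glaucomatous retinas and 10.88 to 11.47 in healthy retinas. The part of either in these differences was not tested.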

How the data were processed

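RNA of whole neural retina was read on 1 array per dog. Normalization by the authors was with RMA, per the study's methods; software and genome build are not given in the sources used here. The deposited intensity values are linear, and each was turned into log2 here. After 111 array controls were left out, the 18416 of 42924 probe sets with log2 above 7 in at least 2 dogs (the methods' definition of an expressed gene) were tested with limma 3.58.1 in R 4.3.3, glaucoma minus healthy, with Benjamini-Hochberg adjustment over all of them. The methods named a rank test and SAM; limma was the main test and the exact Wilcoxon test an alternative. The tested probe set of highest mean over the 10 dogs stood for a gene, which favors bright probe sets. Probe sets with several symbols were not used (2 of them included a listed gene). Arrays have no read depth, so that their number limits the precision, and intensities of different probe sets are not comparable as amounts.

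The genes and the neighboring lists were chosen with earlier results of these data known. Genes past the test, with a difference of at least 0.5, or with probe sets that disagreed were given in full. INSIG2, FASN, ACACA and the other genes outside this rule were picked after their values were seen. So were the omissions of dogs quoted for single genes. Leaving out a dog that runs against a difference favors a smaller adjusted p, so such passes are descriptions only. The fit was first tested on simulated data with known changes. Alternatives covered the filter, normalization, variance model, test, covariates, breeds and each dog left out.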

Additional observations from a re-analysis of the deposited data

Results flagged for a closer look

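For each of the 27 genes and each group of 5 dogs, the highest and the lowest value were compared with the nearest of the others. Of 54 such gene and group pairs, 6 held a value that stood apart by Dixon's criterion, which chance meets in about 5% of groups. In glaucomatous retinas, ACACA was high in the 5-year-old Shiba Inu at 8.193, with 7.595 to 7.763 in the other glaucoma dogs, and ACAT2 was low in the same dog at 8.314, with 8.730 to 8.881 in the others. In healthy retinas, Beagle 1 was low for ACAT2 at 8.614, with 9.021 to 9.179 in the other Beagles, and low for FDPS at 9.145, with 9.726 to 9.918 in the others. Beagle 4 was high for ELOVL5 at 7.618, with 7.005 to 7.132 in the others, and Beagle 2 was low for STARD4 at 7.920, with 8.280 to 8.391 in the others.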

How the results depend on the processing

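Of 669 values of single genes under alternatives, 604 kept their direction and their side of the threshold, 32 passed only under the alternative, 19 passed only in the reported fit and 14 changed sign, the last all with adjusted p above the threshold. SQLE passed in every fit but the exact Wilcoxon rank sum test, under which 0 probe sets passed in either direction, as did 0 of the 27 genes: its smallest adjusted p was 0.0536, while 4840 probe sets had an unadjusted p under 0.05. With age as a covariate, ELOVL2 was 0.53, MVK -0.086, PMVK 0.061, SC5D 0.20 and SCAP 0.087. With the mean of all tested probe sets, ELOVL2 was 0.0016 and PMVK 0.0051, and without both Basset Hounds SCAP was 0.0012. With single dogs left out ELOVL2 ranged from -0.27 to 0.14 and MVK from -0.0059 to 0.13.

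The count of genes called higher, 0 as reported, was 1 (SCD) with quantile normalization, median centring, limma's trend and robust options, age, or the other set of 3' to 5' control transcripts (chosen after seeing the data), 1 (ELOVL5) without both Basset Hounds, 2 (SCD and ELOVL5) without the 5-year-old Shiba Inu and Beagle 4, and 3 with array weights. The count called lower, 3 as reported, was 7 with array weights, 1 with age, 1 with the 3' to 5' ratio, 4 with that of the other control set and 0 with a 2-fold minimum. With single dogs left out these counts ranged from 0 to 1 higher and from 1 to 6 lower. The median difference of the 27 genes was -0.19 without the 5-year-old Shiba Inu and Beagle 4.

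Over all probe sets, 1396 were higher and 1732 lower as reported. The counts were 2095 and 2811 with array weights, 408 and 522 with the 3' to 5' ratio, 1746 and 2030 with that of the other control set, 544 and 574 with a 2-fold minimum, and 866 to 1606 and 1111 to 2127 with single dogs left out, the lowest without Beagle 2; without the Dalmatian 919 were higher. Age left 886 lower. The ages of the healthy dogs were equal, so the age slope rested on the glaucoma dogs. It used the label ages, which for the older Shiba Inu and the Dalmatian differ from those of the study's sample table. The replicate numbers of the labels did not pair the dogs, with correlations of -0.24 to 0.07 between dogs of the same number and 0 of 5 dogs closest to their own number; with the replicate number as a block 1114 probe sets were lower, NSDHL had an adjusted p of 0.0981 and FADS1 one of 0.0362. The causes of these changes were not tested.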
